A study of Mus musculus with 12 samples.

Results

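Transcripts of 9 cyclic nucleotide phosphodiesterase (PDE) genes were followed in immortalized murine brown adipocytes. The genes were Pde1a, Pde3a, Pde3b, Pde4a, Pde4b, Pde4d, Pde7b, Pde8a and Pde10a, taken by symbol from the 48321 genes of the expression matrix. The RNAseq data comprised 12 libraries, 3 in each of 4 groups. The cells descended from SV40-immortalized wildtype preadipocytes of interscapular brown fat. The design text names C57BL/6J mice as their source, and the study's methods name a newborn mouse. They had been transduced with either the empty pLEX vector or tSema4B, a truncated and soluble form of semaphorin 4B. Each line was left unstimulated or treated with norepinephrine (NE), and the study's methods give 2 µM for 6 h. All 4 groups shared the same differentiation scheme. It included 1 mM 3-isobutyl methylxanthine (IBMX), a broad PDE inhibitor, together with rosiglitazone, dexamethasone, insulin and triiodothyronine on day 0 and day 2. The later medium held insulin and triiodothyronine, and cells were used on day 8. The comparisons ask how tSema4B and NE, alone and together, altered transcript levels.

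NE binds adrenoceptors on the adipocyte, and the β-adrenoceptors activate adenylyl cyclase through the G protein Gs. The cAMP formed activates protein kinase A, which starts lipolysis and the transcription of thermogenic genes. PDEs end the signal by hydrolysing cAMP, cGMP or both. Pde1a encodes a calcium- and calmodulin-stimulated enzyme acting on both nucleotides. The PDE3 enzymes hydrolyse cAMP and are inhibited by cGMP, and PDE3B is the form through which insulin restrains lipolysis in fat cells. PDE4 enzymes are specific for cAMP and are themselves phosphorylated by protein kinase A in their long forms. The enzymes of Pde7b and Pde8a are also cAMP-specific, and PDE8A is poorly inhibited by IBMX. PDE10A acts on both nucleotides and is best known from the striatum.

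The reads counted on genes ranged from 2841941 to 3682634 in the vector unstimulated libraries and from 2000780 to 2541747 in the tSema4B unstimulated libraries. After NE they ranged from 4739777 to 5409583 in vector and from 2307190 to 3144946 in tSema4B. A normalized count, used throughout, is a read count divided by the size factor of its library, and 1 read was worth between 0.593 and 1.55 normalized counts. The symbol Sema4b, which the construct also feeds, had mean normalized counts of 116797 in vector and 281514 in tSema4B without stimulation, and of 74266 and 234276 after NE. Vector cells thus already held a very high level, with 3.58% to 4.02% of all reads without stimulation on this symbol, the second highest group mean of any gene. One transduced line stood for each construct and the design text describes the 3 libraries per condition as technical repeats, and whether they came from separate cultures is not stated, so p-values measure the spread between these libraries, which may be technical. Adipocyte markers were present in every group, but the summed normalized count of the 10 markers was 42229 to 48589 in vector against 7368 to 10115 in tSema4B without stimulation. After NE these sums were 55998 to 67499 and 11361 to 12901, and 10 of 10 markers were called lower in tSema4B in both conditions. The 12 preadipocyte and fibroblast markers summed to 30059 to 31003 in vector and 54666 to 63376 in tSema4B without stimulation, and to 23336 to 26375 and 48213 to 52498 after NE. Fewer cells of a type and less RNA per cell cannot be told apart in such bulk libraries.

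These PDE genes fell into well-detected and sparse ones. Pde1a, Pde3b, Pde4a, Pde4b, Pde4d and Pde8a had at least 15 reads in every library and at most 432. Pde3a, Pde7b and Pde10a each had a library with 0 reads. A filter that asked for 10 or more normalized counts in 3 or more of the 12 libraries kept 8 of the 9 genes and left out Pde7b. Pde3a reached 10 normalized counts in vector libraries alone, so it passed the filter through the line in which it was high. Calls, adjusted p-values, counts and medians below that include it are thus descriptions where the 2 lines are compared. Pde10a reached 10 in at least 1 library of each of the 4 groups.

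**Figure D1:**
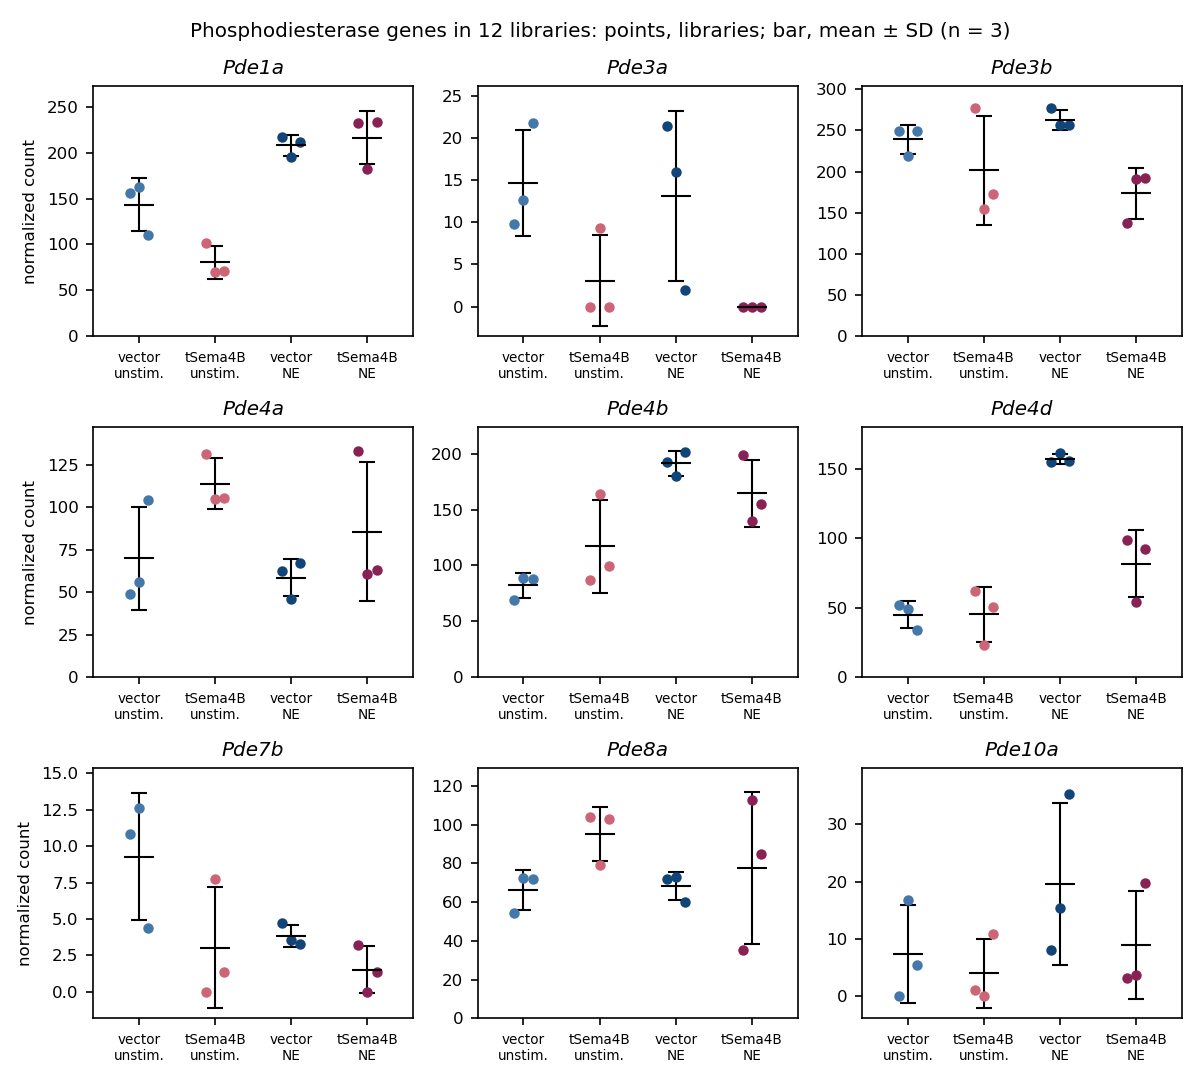
Normalized counts (vertical axis, linear, own scale for each gene) of the 9 PDE genes in the 4 groups on the horizontal axis, where coloured points are libraries and black bars give the mean ± SD of 3 libraries. Pde4d in NE-stimulated vector cells sat between 155 and 161, above all other groups, and Pde3a was at 0 in all 3 tSema4B libraries after NE.

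Levels of different genes were set side by side per kilobase of exon sequence, by the joined exons of all annotated transcripts. That length was 12006 bases over 20 transcripts for Pde4d and 4045 over 3 for Pde8a. The transcripts made by these cells were not resolved, so the order between genes and sums over genes depend on this length. Per kilobase, Pde3b and Pde1a led in unstimulated vector cells. Their levels were 26.2 ± 1.93 and 23.8 ± 4.81 normalized counts per kb (SD, n = 3), and the ranges of these 2 genes overlapped. Pde8a followed at 16.4 ± 2.54, Pde4a at 9.13 ± 3.95, Pde4b at 7.79 ± 1.05 and Pde4d at 3.74 ± 0.814 normalized counts per kb. Of these neighbours, Pde1a was apart from Pde8a and Pde4b from Pde4d, whereas Pde8a overlapped Pde4a and Pde4a overlapped Pde4b. Pde3a, Pde7b and Pde10a stood at 1.16, 0.745 and 0.578 normalized counts per kb and overlapped as neighbours.

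The order differed in the other groups. In unstimulated tSema4B cells Pde8a was at 23.5 ± 3.47, Pde3b at 22.1 ± 7.22, Pde4a at 14.9 ± 1.95, Pde1a at 13.4 ± 2.97 and Pde4b at 11.1 ± 3.90 normalized counts per kb, each overlapping the next. Pde4d was below these 5 genes, at 3.77 ± 1.66. Without division by length, Pde3b (mean of 201 normalized counts) was above Pde8a (95.1) in this group. After NE, Pde1a led per kb in both lines and did not overlap the second gene, with 34.6 ± 1.85 in vector and 36.0 ± 4.86 normalized counts per kb in tSema4B. Without division by length, Pde3b (263) was above Pde1a (208 normalized counts) in NE-stimulated vector cells. Pde1a (216) was above Pde3b (173) in NE-stimulated tSema4B cells by that measure. In NE-stimulated vector cells Pde3b came second at 28.9 ± 1.32, followed by Pde4b at 18.1 ± 1.05, Pde8a at 16.9 ± 1.74, Pde4d at 13.1 ± 0.307 and Pde4a at 7.67 ± 1.45. Among these only Pde4b and Pde8a overlapped. In NE-stimulated tSema4B cells Pde8a (19.2 ± 9.67), Pde3b (19.0 ± 3.43), Pde4b (15.6 ± 2.87), Pde4a (11.2 ± 5.36) and Pde4d (6.81 ± 2.02) overlapped from each gene to the next.

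Summed over the 9 genes, the level was 89.5 ± 3.42 normalized counts per kb in unstimulated vector and 89.5 ± 12.2 in unstimulated tSema4B. It was 122 ± 4.19 after NE in vector and 109 ± 4.08 after NE in tSema4B, and no NE library overlapped an unstimulated one. Pde4d made up 4.19% ± 1.00 of this sum in vector cells without stimulation and 10.7% ± 0.611 with NE. Pde1a went from 14.9% ± 1.23 to 33.1% ± 3.74 of the sum in tSema4B cells, against 26.7% ± 5.64 and 28.3% ± 0.639 in vector cells.

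**Figure D2:**
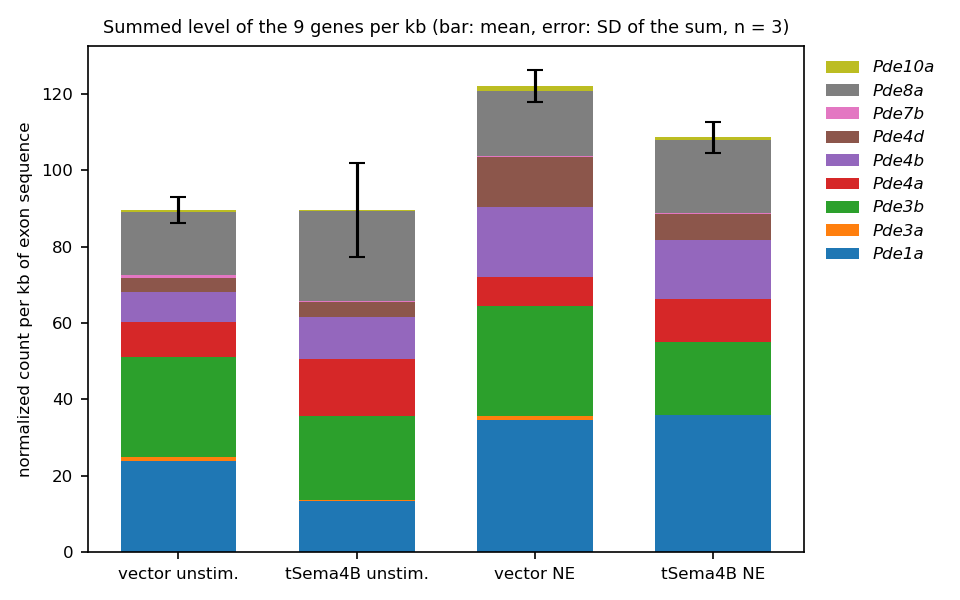
Stacked bars of the mean level of each of the 9 PDE genes in normalized counts per kb of exon sequence (vertical axis, from 0) in the 4 groups (horizontal axis), with the SD of the sum over 3 libraries as error bars. The sums were 89.5, 89.5, 122 and 109 from left to right, and the Pde1a, Pde4b and Pde4d segments were taller in the NE groups than in the unstimulated group of the same line.

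In vector cells NE raised 2 of the 8 tested genes, Pde4b and Pde4d, both of the cAMP-specific PDE4 family. Calls required both an adjusted p no higher than 0.05 (limma, Benjamini-Hochberg over 11998 genes) and an absolute log2 fold change no smaller than 1. By this rule 1.66% of all tested genes were called higher and 0.975% lower with NE in vector cells. The median log2 fold change of the 8 PDE genes was 0.35, and that of all tested genes was -0.02. Groups did not overlap for 4 of the 8, namely Pde1a, Pde3b, Pde4b and Pde4d, all higher with NE, against 33.3% of all tested genes in either direction. At the adjusted p alone the same Pde4b and Pde4d passed, against 11.6% of all tested genes. Marker genes of other cells moved in the same comparison. Of the 6 macrophage markers the 2 that were tested, Csf1r (1.37 to 11.5 normalized counts) and Cd14 (12.9 to 32.3), were called higher, while Adgre1 and Ptprc had 0 reads in every library. Csf1r had at most 2 reads in any unstimulated library of either line. It thus passed the filter through NE libraries alone, and its calls with NE are descriptions. The 6 markers summed to 13.1 to 21.7 normalized counts without and 41.7 to 59.6 with NE in vector. Of the 12 preadipocyte and fibroblast markers 6 were lower and 1 higher at the adjusted p. Of the 10 adipocyte markers 1 was higher (Fabp4) and 2 were lower (Plin1 and Pparg), and of 4 tested smooth muscle markers Acta2 was lower. Of 5 tested brown adipocyte markers 1 was called higher. The part of these lists in the PDE changes was not tested.

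Pde4d lies at chr13:108449948-109953461 on the plus strand (GRCm38, GENCODE M21). It had 52.1, 48.8 and 33.8 normalized counts in the 3 unstimulated vector libraries and 155, 161 and 155 after NE. All 3 NE libraries lay far above the unstimulated ones and close together. The log2 fold change was 1.81 ± 0.307 (SE, adjusted p = 0.000423 by limma), or 3.50-fold on the scale of log2(normalized count + 1). In tSema4B cells Pde4d had 62.0, 23.2 and 50.7 normalized counts without and 98.7, 54.0 and 92.5 with NE. The lowest NE library was below the highest unstimulated one, and the log2 fold change of 0.90 ± 0.307 had an adjusted p of 0.0869 (limma).

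Pde4b, at chr4:102087543-102607259 on the plus strand, had 69.5, 89.1 and 88.2 normalized counts in unstimulated vector cells and 193, 180 and 202 after NE. The 2 groups were well apart. The log2 fold change was 1.22 ± 0.210 (SE, adjusted p = 0.000519 by limma), or 2.32-fold. In tSema4B cells the values were 87.0, 164 and 99.9 without and 198, 140 and 155 with NE. One unstimulated library, replicate 2, lay above 2 of the NE libraries, and the log2 fold change was 0.53 ± 0.210 (adjusted p = 0.151 by limma). Without that library the adjusted p was 0.0205 at a log2 fold change of 0.80.

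The third PDE4 gene of the list, Pde4a (chr9:21165714-21213248, plus strand), had a log2 fold change of -0.19 ± 0.298 with NE in vector and -0.50 ± 0.298 in tSema4B. Neither passed the test, with limma's adjusted p at 0.776 and 0.378. Pde3b (chr7:114415281-114539251, plus strand) had 249, 219 and 249 normalized counts in unstimulated vector cells and 277, 256 and 256 with NE. The ranges did not overlap, but the log2 fold change was 0.14 with a 95% interval from -0.24 to 0.52 and an adjusted p of 0.715 (limma). Pde8a (chr7:81213596-81334533, plus strand) had 54.3 to 72.3 normalized counts before and 60.2 to 72.9 after NE in vector cells, with a log2 fold change of 0.05 and a 95% interval from -0.57 to 0.68.

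**Figure D3:**
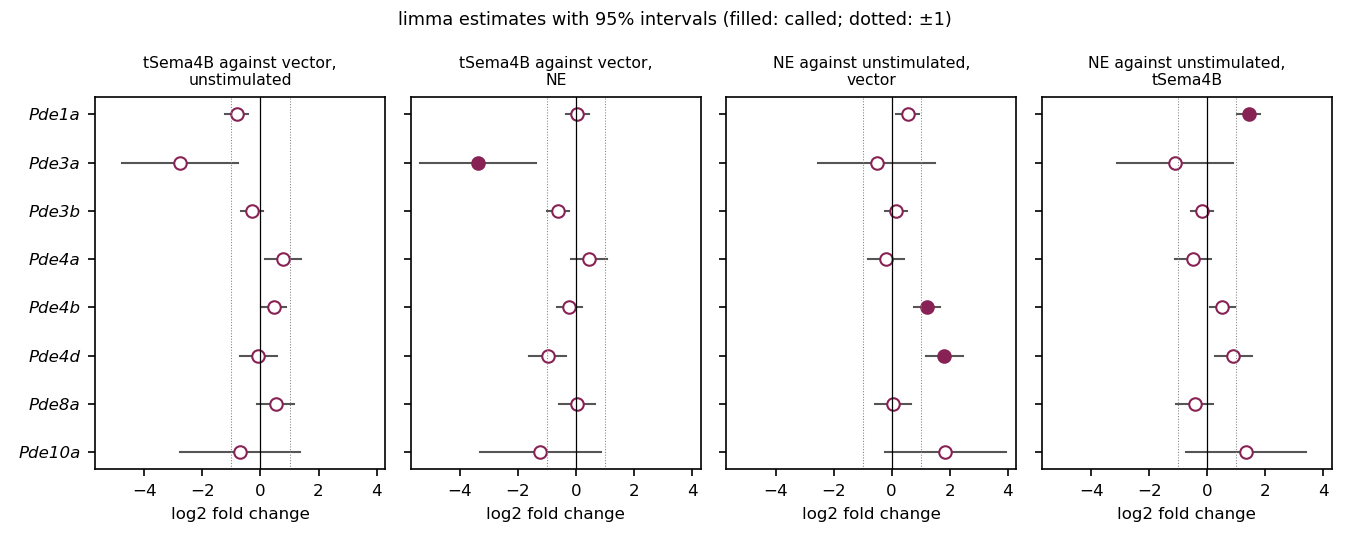
Log2 fold changes (horizontal axis) of the 8 tested PDE genes in the 4 comparisons of 2 groups, with bars for 95% intervals from limma, filled points for called genes and dotted lines at the fold threshold. Filled points mark Pde3a in tSema4B against vector after NE at -3.38, Pde4b and Pde4d with NE in vector at 1.22 and 1.81, and Pde1a with NE in tSema4B at 1.42. Pde3a passed the filter through vector libraries alone, so its points between the lines are descriptions.

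In tSema4B cells NE raised 1 of the 8 tested genes, Pde1a. Of all tested genes 1.31% were called higher and 0.758% lower in this comparison. Pde1a lies at chr2:79834453-80129458 on the minus strand. It had 101, 69.6 and 71.2 normalized counts in the unstimulated tSema4B libraries and 233, 183 and 234 after NE. Every NE library exceeded every unstimulated one, and the log2 fold change was 1.42 ± 0.187 (SE, adjusted p = 3.38e-05 by limma), or 2.68-fold. In vector cells Pde1a had 156, 163 and 110.0 normalized counts without and 217, 196 and 211 with NE. These groups were apart as well, but the log2 fold change of 0.56 ± 0.187 was below the fold threshold and its adjusted p was 0.0571 (limma). The adjusted p was 0.0422 by edgeR and 0.0296 by DESeq2 on whole reads. Pde1a was the sole gene of the 8 whose tSema4B groups did not overlap, against 20.7% of all tested genes, and the sole one to pass the adjusted p, against 6.25%. Marker genes moved in this comparison too. The adipocyte markers Cidec and Lpl were called higher, 2 of 10, as was the macrophage marker Csf1r (1.31 to 15.8 normalized counts), 1 of 2 tested. The call of Csf1r is a description here too, since it passed the filter through NE libraries alone. Of 5 tested brown adipocyte markers 2 were called higher. Of the 12 preadipocyte and fibroblast markers 6 were lower and 1 higher at the adjusted p. Of 4 tested smooth muscle markers 2 were lower at the adjusted p, and 1 of them, Tagln, was called lower (166 to 68.4). The part of these lists in the rise of Pde1a was not tested.

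Whether the response to NE differed between the lines was tested directly as an interaction. Limma called 0 of the 8 genes, against 0.0250% of all tested genes higher and 0% lower. At an unadjusted p below 0.05 it had 1 PDE gene higher and 2 lower, against 10.2% of all tested genes in either direction. edgeR also called 0 of the 8, with 1 higher and 2 lower at an unadjusted p below 0.05. DESeq2 had 1 higher and 3 lower at that level, but it gave no adjusted p for 7 of the 8 genes and so could not call them, and over all genes it called 34 higher and 67 lower. The response of Pde1a was larger in tSema4B than in vector by 0.87 on the log2 scale (95% interval 0.32 to 1.42, adjusted p = 0.233 by limma). The responses of Pde4b and Pde4d differed by -0.69 (-1.31 to -0.07, adjusted p = 0.409) and -0.91 (-1.81 to -0.01, adjusted p = 0.482 by limma). None of these differences in response passed the adjusted threshold.

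Because NE acts through cAMP, the promoters of these genes were searched for the cAMP response element (CRE), the binding site of CREB family factors. The RefSeq table used (GRCm38.p6) held 16 windows for 7 of the 9 genes, and the 250 bases before each start were read on both strands. Pde3a and Pde3b were not in the table. The full element TGACGTCA was found in 0 of the 16 windows and in 1.55% of 32851 windows of all genes. Its half-site TGACG, or CGTCA on the other strand, was found in 4 of the 16 windows and in 17.8% of all windows. The half-site forms part of the full element. The 4 matches are shown because they include Pde1a and Pde4b, both called with NE, with the half-site in capitals.
Pde1a, minus strand, chr2:80039054-80039078: aacttcagccCGTCAttcctcagta
Pde4b, plus strand, chr4:102421511-102421535: tttggctgcaCGTCAattttctcat
Pde8a, plus strand, chr7:81213171-81213195: tgctttgcatTGACGccagcagccg
Pde4a, plus strand, chr9:21184041-21184065: cacagctcgaCGTCAggctggggag
The half-sites lie 166, 34, 84 and 50 bases before the start of the window's transcript, in the order shown. The Pde4b match falls in an exon of the GENCODE annotation, and the other 3 fall in none. The called gene Pde4d had a single window in the table, with no match, against 4 windows each for Pde1a and Pde4b, although 20 transcripts of Pde4d are annotated. Pde4a and Pde8a each had a match and did not pass the test with NE. A match is a description of the letters and not of binding.

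After NE, Pde3b and Pde4d were lower in tSema4B at the adjusted p but under the fold threshold, and Pde3a, which passed the filter through vector libraries, had no read in tSema4B. Limma called Pde3a lower and none of the other 7 genes. Of all tested genes 2.03% were called higher and 3.73% lower in tSema4B after NE. With Pde3a counted, 3 of the 8 genes passed the adjusted p alone, Pde3a, Pde3b and Pde4d, all lower in tSema4B, against 21.0% of all tested genes in either direction. The same 3 were the genes whose groups did not overlap, against 37.7% of all tested genes. For Pde3a this rests on a vector library with 3 reads, the floor used here, against 0 reads in tSema4B. The median log2 fold change was -0.42 over the 8 genes and -0.01 over all tested genes.

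Pde3a, at chr6:141249269-141507448 on the plus strand, encodes the PDE3 form best known from heart muscle, vascular smooth muscle and the oocyte. NE-stimulated vector cells had 32, 27 and 3 reads, or 21.5, 16.0 and 1.96 normalized counts, and the 3 NE-stimulated tSema4B libraries had 0 reads. The third vector library was thus at the floor of 3 reads used here as the detection limit. The vector mean of 13.2 normalized counts was 3.94-fold the mean floor of the tSema4B libraries, 3.34 at 3 reads per library. The third vector library was itself under that floor, so 3.94 describes the means and is no lower bound for each library. The fitted log2 difference of -3.38 ± 0.964 (SE, adjusted p = 0.0147 by limma) depends on the pseudocount and is no bound. Since Pde3a entered the fit through vector libraries alone, this call and its adjusted p are descriptions. The call was lost without vector NE replicate 1 (adjusted p = 0.0997) or replicate 2 (adjusted p = 0.0805 by limma). With no filter on low values the adjusted p was 0.0273, and with all libraries thinned to the depth of the shallowest it was 0.0293 (limma). Gm28523, on the opposite strand, shares 5.82% of the exon bases of Pde3a, and the strand setting of the counting is not given in the sources used here.

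Pde3b, the insulin-regulated form of fat cells, had 277, 256 and 256 normalized counts in vector and 137, 191 and 192 in tSema4B after NE. The tSema4B libraries were all lower, by 0.61 ± 0.182 on the log2 scale (adjusted p = 0.0187 by limma), which is below the fold threshold. Leaving out vector NE replicate 1 or tSema4B NE replicate 1 moved the adjusted p to 0.0675 or 0.0983. Pde4d had 155, 161 and 155 normalized counts in vector against 98.7, 54.0 and 92.5 in tSema4B after NE. This was a log2 difference of -0.98 ± 0.307 (SE, adjusted p = 0.0256 by limma), just under the fold threshold. Leaving out any vector NE library or tSema4B NE replicate 2 moved its adjusted p to between 0.0661 and 0.136, and with no filter on low values it was 0.0561 (limma). The summed adipocyte markers were also lower in tSema4B after NE, at 11361 to 12901 against 55998 to 67499 normalized counts. Of 5 tested brown adipocyte markers 3 were called lower, and of 4 tested smooth muscle markers Tagln was lower at the adjusted p (122 to 68.4). Of the 12 preadipocyte and fibroblast markers 9 were higher at the adjusted p, as was 1 of 2 tested neuron markers. The part of these lists in the lower Pde3a, Pde3b and Pde4d was not tested.

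The 2 lines overlapped after NE for Pde1a, Pde4a, Pde4b, Pde8a and Pde10a. Pde1a had 217, 196 and 211 normalized counts in vector and 233, 183 and 234 in tSema4B, with a log2 fold change of 0.05 and a 95% interval from -0.34 to 0.44. Pde4b had 193, 180 and 202 against 198, 140 and 155, a log2 difference of -0.23 with an interval from -0.67 to 0.20. Pde4a had 62.5, 46.2 and 67.4 against 133, 60.6 and 63.4, with an interval from -0.16 to 1.08. For Pde8a the vector libraries had 71.9, 72.9 and 60.2 and the tSema4B libraries 35.4, 113 and 84.6 normalized counts. The 3 tSema4B libraries spanned the vector range on both sides, and the interval ran from -0.59 to 0.66.

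Without stimulation none of the 8 genes was called between the lines. Limma gave 2 higher and 2 lower at an unadjusted p below 0.05, against 26.1% of all tested genes in either direction, and edgeR and DESeq2 called 0 as well. Of all tested genes 1.11% were called higher and 2.71% lower in tSema4B. Pde1a alone passed the adjusted p, as did 13.0% of all tested genes. It had 156, 163 and 110.0 normalized counts in vector and 101, 69.6 and 71.2 in tSema4B, and the groups did not overlap. The log2 fold change was -0.82 ± 0.187 (SE, adjusted p = 0.00432 by limma), or 1.76-fold lower. The summed adipocyte markers were lower in the same libraries, at 7368 to 10115 against 42229 to 48589, and 3 of 5 tested brown adipocyte markers were called lower. Of the 12 preadipocyte and fibroblast markers 8 were higher at the adjusted p. Both tested neuron markers were higher too, and the neuron list summed to 271 to 365 in tSema4B against 145 to 197 in vector. The part of these lists in the lower Pde1a was not tested.

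Groups were also apart for Pde3a, below vector, and for Pde4a and Pde8a, above it. The total of 4 non-overlapping genes of 8 stands beside 29.4% of all tested genes. For Pde3a the nearest libraries, 9.77 normalized counts in vector and 9.28 in tSema4B, differed by less than 1 read. So did those of Pde4a, at 104.6 in vector and 105.2 in tSema4B. Unstimulated vector cells had 9, 15 and 20 reads of Pde3a and unstimulated tSema4B cells had 0, 6 and 0, a log2 difference of -2.78 ± 0.964 (SE, adjusted p = 0.0605 by limma). Only tSema4B replicate 2 had any read. Without it the adjusted p was 0.0111 (limma), a description, since this refit left no read of Pde3a in unstimulated tSema4B cells. Pde4a had 48.9, 56.3 and 105 normalized counts in vector and 131, 105 and 105 in tSema4B. Vector replicate 3 lay next to the tSema4B libraries, and the log2 fold change was 0.77 ± 0.298 (SE, adjusted p = 0.0959 by limma), or 1.10 with an adjusted p of 0.0217 without that library. Pde8a had 54.3, 72.3 and 71.9 against 104, 78.9 and 103 normalized counts, a log2 difference of 0.52 ± 0.302 (SE, adjusted p = 0.298 by limma). Pde3b had 249, 219 and 249 against 277, 155 and 173 normalized counts, Pde4b 69.5 to 89.1 against 87.0 to 164, and Pde4d 33.8 to 52.1 against 23.2 to 62.0, and each of these overlapped. The median log2 fold change of the 8 genes was -0.18, and that of all tested genes was -0.00254.

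Pde7b and Pde10a had few reads in every group. Pde7b (chr10:20398004-20725078, minus strand) had 10, 15 and 4 reads in unstimulated vector, 0, 5 and 1 in unstimulated tSema4B, 7, 6 and 5 in vector after NE and 3, 0 and 1 in tSema4B after NE. Its mean normalized counts were 9.28, 3.03, 3.84 and 1.51 in the same order. Its highest values were in unstimulated vector cells, and tSema4B cells with NE were at or under the floor of 3 reads throughout. Pde10a (chr17:8525372-8986648, plus strand) had 0, 20 and 5 reads in unstimulated vector and 1, 0 and 8 in unstimulated tSema4B. After NE it had 12, 26 and 54 reads in vector and 3, 4 and 15 in tSema4B. The mean normalized counts in vector and tSema4B were 7.42 and 4.05 without stimulation and 19.6 and 8.94 after NE. Groups overlapped in every comparison, and the log2 fold change with NE in vector of 1.85 had a 95% interval from -0.22 to 3.93. No difference in Pde10a passed the test. Pde7b entered only the fit with no filter, where its lowest adjusted p over the comparisons was 0.272 (limma), for -1.80 in unstimulated tSema4B against vector.

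The genes whose pattern over the 4 group means was most like that of a called PDE gene were found among all tested genes by the root mean square (RMS) difference of centred log2 means. For Pde4d they were Gcnt2 (RMS 0.0709), Rtn4rl2 (0.111) and Nop16 (0.116). For Pde4b they were Uck2 (0.0287), Ikzf5 (0.0337) and Fsbp (0.0417), and for Pde1a they were Mmachc (0.0338), Zfp653 (0.0723) and Plppr3 (0.0855). For Pde3a they were Adh1 (0.176), Adrb3 (0.217) and Chdh (0.243). Adrb3, which encodes the β3-adrenoceptor, had mean normalized counts of 129 and 14.6 in vector and tSema4B without stimulation and of 81.7 and 8.99 after NE, and Pde3a had 14.7, 3.09, 13.2 and 0 in the same order. With 4 points per pattern these likenesses are descriptions.

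Of 15 other genes of the PDE families, 9 had at most 5 reads in every library and 5 passed the filter. Pde2a, which encodes the cGMP-stimulated enzyme, was the only one of these 5 called in any comparison. After NE it had 24.2 to 30.2 normalized counts in vector (37 to 50 reads) and 2.1 to 21.1 in tSema4B (2 to 16 reads). It was lower in tSema4B by 1.84 on the log2 scale (adjusted p = 0.0323 by limma). Of 9 tested PDE anchors and partners, Abhd15, whose product binds PDE3B, was lower in unstimulated tSema4B by 1.77 ± 0.404 (adjusted p = 0.00432 by limma), and no other was called in the 4 comparisons. Its means were 30.8 and 8.77 normalized counts.

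Some receptor genes of the lists of cAMP synthesis and its inhibition were lower in tSema4B, in the comparisons in which 2.71% and 3.73% of all tested genes and 10 of 10 adipocyte markers were called lower. Of 7 tested genes of cAMP synthesis, Adrb3 was called lower in tSema4B in both conditions, with log2 fold changes of -3.20 and -3.06, whereas the adenylyl cyclase gene Adcy3 was higher at the adjusted p in both (0.75 and 0.76). Of 5 tested genes of Gi-coupled inhibition, 3 were called lower in both conditions. They were the adenosine receptor gene Adora1 (-4.26 and -3.94), the lactate receptor gene Hcar1 (-2.55 and -1.69) and the niacin receptor gene Hcar2 (-2.13 and -2.18). Adora1 had means of 37.25 and 30.6 normalized counts in vector against 1.99 and 2.52 in tSema4B, without stimulation and after NE. It thus passed the filter through the line in which it was high, and its calls and log2 fold changes between the lines are descriptions. Hcar2 was also called higher with NE in both lines, by 2.00 and 1.95.

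Among 15 tested cAMP effectors Crem, a cAMP-inducible regulator of CRE-dependent transcription, rose with NE by 1.69 in vector and 1.40 in tSema4B on the log2 scale, from 70.8 to 231 and from 62.8 to 163 normalized counts. Pkia, a protein kinase A inhibitor, was higher in tSema4B after NE by 1.20. Of 5 tested genes of cGMP signalling, Npr3, the natriuretic peptide clearance receptor, fell with NE by 1.69 in vector and by 1.52 in tSema4B, and Prkg2 rose by 1.18 in vector. Of 10 tested cAMP-induced genes 3 rose with NE in vector, Ucp1 (from 12.1 to 276 normalized counts), Nr4a1 (27.1 to 84.4) and Junb (160 to 481), beside the called Pde4b and Pde4d. In tSema4B 2 of the 10 were called higher, Junb by 1.24 and Ucp1 from 0 in every library to a mean of 62.9 normalized counts. After NE, tSema4B cells had lower Ucp1 and Nr4a1 than vector cells, with log2 fold changes of -2.12 and -1.60. Without stimulation 1 of the 10 was called higher in tSema4B, the kinase gene Sik1 (1.33), and 2 were called lower. The medians of the cAMP-induced genes with NE were 0.83 in vector and 0.47 in tSema4B, against 0.35 and 0.17 for the 8 PDE genes and -0.02 and -0.00481 for all tested genes.

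**Figure D4:**
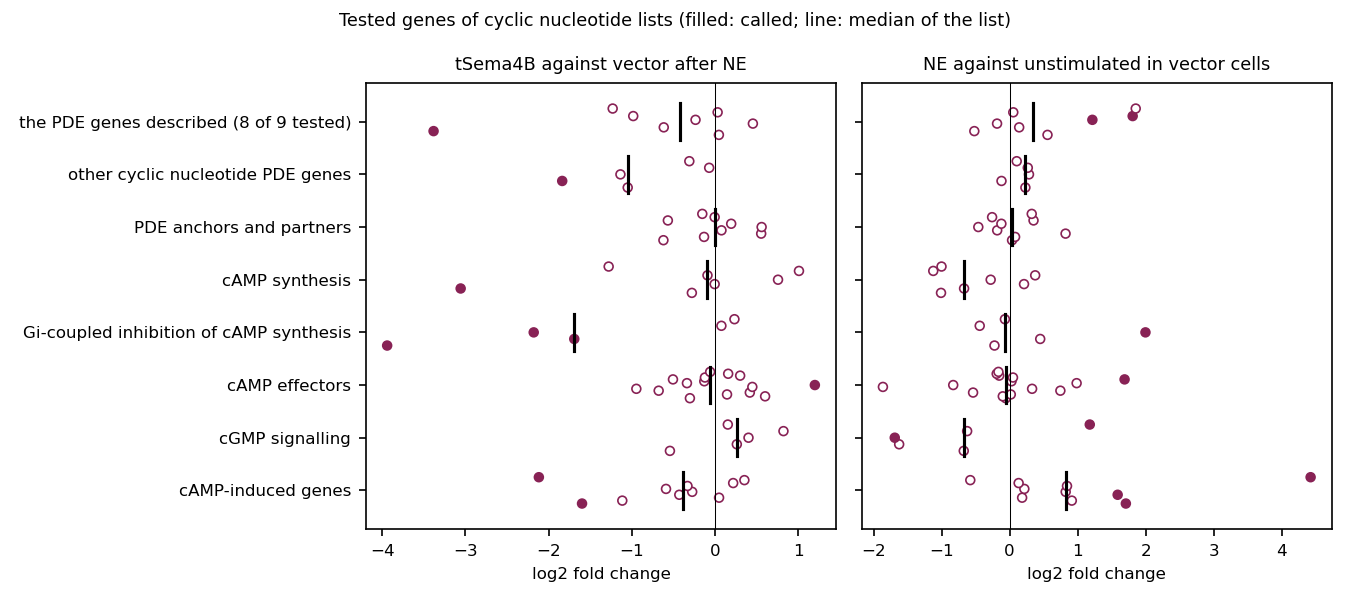
Log2 fold changes (horizontal axes) of the tested genes of each list (rows) in tSema4B against vector after NE (left) and with NE in vector cells (right), where points are genes, filled points are called and the black line is the median of the list. On the left 3 of the 5 Gi-coupled genes are called lower, among them Adora1, which passed the filter through vector libraries. On the right Pde4b and Pde4d of the PDE genes and 3 of the 10 cAMP-induced genes are called higher.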

How the data were processed

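Groups were taken from the sample labels. Per the submitters' processing notes and the study's methods, the authors aligned single-end reads with STAR 2.7.9a to mouse (mm10, GRCm38.p4), counted them with HTSeq and divided by DESeq2 size factors. The values the authors deposited are this normalized count, a scaled read signal. The gene annotation and strand setting are not given in the sources used here. In every library 100% of the values were whole multiples of 1 read within 0.01, so whole reads were recovered. Log2(normalized count + 1) was fitted with limma 3.58.1 in R 4.3.3, with 1 model of the 4 groups, a variance trend and two-sided tests, over the 11998 genes that reached 10 normalized counts in 3 or more libraries. Calls required an adjusted p no higher than 0.05 and an absolute log2 fold change no smaller than 1 (for the interaction, the adjusted p only). The threshold on folds is on the log2(value + 1) scale, which understates changes of low genes. A fold against a group at or under 3 reads in every library was computed against 3 reads per library, and this floor covers counting error only. Exon lengths and positions came from GENCODE M21 (GRCm38). All libraries of a group differed by more than sampling noise, at a chi-square over degrees of freedom of 3.65 to 6.12. Named genes were all 9 PDE genes, Sema4b as the check of the construct, the called genes of each list (at most 4, by size of change) and the 3 nearest patterns of each called PDE gene. One gene that this rule names is not reported here. The members and lists were chosen with earlier results of these data known. Alternatives were pseudocounts of 0.5 and 10, no filter or one at 50, other scalings, edgeR 4.0.16 and DESeq2 1.42.0 on whole reads, thinned reads, the compared libraries alone, the replicate number as a block and each library left out. The fit was tested on simulated data.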

Additional observations from a re-analysis of the deposited data

How the results depend on the processing

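Of 742 refits of single genes with an adjusted p, 707 kept their direction and side of the threshold (DESeq2 gave none for 8 others), and the calls of Pde1a with NE in tSema4B and of Pde4b and Pde4d with NE in vector did so in all 18 alternatives each. The number of genes called lower in tSema4B after NE was 1, but 0 with a filter at 50, which Pde3a did not pass, 2 with scaling to nuclear genes or thinned reads, 3 by adjusted p alone and 0 to 2 with a library left out. The second gene was Pde4d, at -1.03 and -1.10 and, without tSema4B NE replicate 1 or 3, at -1.14 and -1.09. Pde3a was -2.83 and -3.03 without vector NE replicate 1 or 2, where the call was lost, and its fold ranged from -6.82 by edgeR to -1.10 with a pseudocount of 10. Without stimulation 1 gene was called lower with nuclear scaling (Pde3a, -2.84) and 1 by adjusted p alone, with 0 to 1 lower and 0 to 1 higher when a library was left out. These were Pde3a without tSema4B replicate 2, the only unstimulated tSema4B library with a read of it, and Pde4a without vector replicate 3. With NE in tSema4B 1 to 2 were called higher, the second being Pde4d without unstimulated replicate 1 (1.18) or NE replicate 2 (1.17). The cause of these shifts was not tested.

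Sign changes concerned only values that were not called. Pde4d without stimulation was 0.024 by edgeR and 0.031 by DESeq2, and -0.35 to 0.34 with a library left out. After NE, Pde1a was -0.0018 with nuclear scaling and -0.011 to 0.17 with a library left out, and Pde8a was -0.017 and -0.31 to 0.51. With NE in vector, Pde8a was -0.024 with thinned reads. With a library left out, Pde10a without stimulation was -1.85 to 0.23. With NE in vector, Pde3a was -1.07 to 0.39, Pde4a -0.40 to 0.14 and Pde8a -0.081 to 0.14. With NE in tSema4B, Pde3a was -1.68 to 0.00, Pde3b -0.35 to 0.069 and Pde8a -0.77 to 0.049. The interaction was -1.51 to 0.52 for Pde3a and -1.45 to 0.62 for Pde10a.

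No effect shared by libraries of the same replicate number was seen. Whether equal numbers mark a shared culture or day is not stated, and these values cannot decide it. After removal of group means, same-numbered libraries had correlations of -0.047 to 0.0282 over 18 pairs, and 0 pairs passed 0.1. With a replicate block the counts of called PDE genes did not move, and Pde3a after NE was -3.38 with an adjusted p of 0.0160 by limma. Pde3a, Pde7b and Pde10a rest on few reads.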
